A study of Homo sapiens with 6 samples.

Results

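The genes described here are those whose symbols begin with PSMA to PSMG followed by a number, which name the subunits of the proteasome and the proteins that activate, inhibit or assemble it. A gene was taken when it had at least 10 estimated counts in at least 3 of the 6 libraries. There were 46 such genes of 48 whose symbols matched, in a table of 16655 genes of which 13002 were tested. Among the 46 genes, 44 encode proteins of the proteasome, and PSMC3IP and PSME3IP1 encode proteins that share the letters of the symbol but are no subunits. The libraries were made from HEK-293T cells, an established line from human embryonic kidney in which the large T antigen of SV40 is expressed, harvested 24 h after lipofection with one of 2 plasmids. The GFP group (n = 3) received the empty vector and expressed GFP alone, and the RfA1 group (n = 3) received the vector for GFP-tagged reflectin A1 (RfA1), an intrinsically disordered protein of squid skin. GFP and the transfection were therefore shared by both groups. The transfection was transient and 1 cell line was used, no sorting of the cells that took up plasmid is stated, and the plasmid transcripts were not analysed here. Nothing in the labels says that the replicates came from separate cultures, so the p-values measure the spread between these libraries, which may be technical.

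The proteasome is the barrel-shaped protease that degrades proteins tagged with ubiquitin. Its core consists of rings of alpha subunits, which gate the entrance, around rings of beta subunits, some of which carry the proteolytic sites. A regulatory cap docks on the alpha ring. The base of the cap holds a ring of ATPases that unfold the substrate and thread it into the core, and its lid holds a deubiquitinase that removes the ubiquitin chain. Other caps, inhibitors and assembly chaperones bind the core or the base, and cells are known to raise proteasome genes together through the transcription factor NFE2L1 when proteasome activity falls. The comparison of RfA1 with GFP cells asks whether the RNA of any of these genes differed when the squid protein was present.

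The libraries held 10272306 to 11566284 counts. On the first principal component of all tested genes (44.6% of the variance), neither GFP nor RfA1 libraries formed a group of their own. RfA1 replicate 2 (score 10.1) lay with GFP replicates 2 and 3 (18.2 and 12.3). GFP replicate 1 (-2.18) lay between these and RfA1 replicates 1 and 3 (-16.5 and -22.0). Other components are not described here. The 7 genes taken as markers of the line (PAX2, LHX1, NEFL, NEFM, KRT8, KRT18 and VIM) were all present, between 3.43 and 724 TPM. Of 8 markers of other cell types, the 4 of leukocytes, endothelium and fibroblasts that were listed reached at most 0.09 TPM, ALB and APOA2 reached at most 0.62 TPM, and 2 were not analysed here.

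Promoter sequences of the genes are shown first because the letters of known control elements can be compared with the values that follow. RefSeq promoters (GRCh38.p14) were matched for 40 of the 46 genes, and the 250 bases before the start were searched on both strands. The core of the antioxidant response element (TGACNNNGC), which NFE2L1 and NFE2L2 bind with small MAF proteins, was found before 10 of the 40 genes (25.0%), against 11.0% of 27305 promoters and 11.9% of the promoters of tested genes. CCAAT, the letters of the NF-Y box, was found before 18 genes (45.0%, against 33.0% of all promoters and 35.1% of those of tested genes). These include PSMC3IP and PSME3IP1, and among the proteasome proteins alone it was 16 of 38 (42.1%). CCGGAAG, a core bound by ETS factors, was found before 9 genes (22.5%, against 8.82% of all promoters and 15.8% of those of tested genes). The promoters printed here were chosen after the values were seen, as PSMD12 and PSMC6 had higher values with RfA1 and PSMD3 and PSMB3 lower ones. Capitals mark every match to any of the 3 motifs on either strand, and each stretch ends where an annotated exon begins.
PSMB3, chr17:38752491-38752735, plus strand: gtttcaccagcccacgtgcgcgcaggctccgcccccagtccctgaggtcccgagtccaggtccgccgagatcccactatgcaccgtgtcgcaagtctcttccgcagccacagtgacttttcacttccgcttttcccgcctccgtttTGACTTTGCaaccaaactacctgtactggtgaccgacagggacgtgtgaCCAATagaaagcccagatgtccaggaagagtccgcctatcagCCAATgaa
PSMC6, chr14:52706950-52707171, plus strand: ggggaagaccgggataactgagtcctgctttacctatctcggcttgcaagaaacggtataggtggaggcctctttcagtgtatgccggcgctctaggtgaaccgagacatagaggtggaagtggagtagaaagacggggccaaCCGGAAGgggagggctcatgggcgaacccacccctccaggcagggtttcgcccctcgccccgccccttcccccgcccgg
PSMD12, chr17:67366628-67366827, minus strand: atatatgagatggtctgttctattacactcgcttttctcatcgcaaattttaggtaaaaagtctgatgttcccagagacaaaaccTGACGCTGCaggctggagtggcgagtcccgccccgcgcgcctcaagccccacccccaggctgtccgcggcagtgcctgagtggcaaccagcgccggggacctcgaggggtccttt
PSMD3, chr17:39980557-39980796, plus strand: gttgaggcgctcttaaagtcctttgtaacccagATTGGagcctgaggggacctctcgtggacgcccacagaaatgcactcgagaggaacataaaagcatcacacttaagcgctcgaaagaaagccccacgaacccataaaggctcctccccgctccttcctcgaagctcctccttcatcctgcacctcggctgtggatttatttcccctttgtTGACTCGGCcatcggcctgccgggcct
The response element core began 104 bases before the start of PSMB3, 165 before that of PSMD12 and 37 before that of PSMD3. PSMD12 also held CCGGAAG in the bases next to its start that are not printed. A match of letters is not a measured binding site.

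Proteasome genes were among the well expressed genes of these cells. Levels are compared between genes in TPM, which the authors divided by transcript length. The 46 genes together took 0.646% to 0.730% of the TPM of a library. Their median level in GFP cells was 123 TPM, against 14.3 TPM for all tested genes. The beta subunits summed to 2179, 2047 and 2085 TPM in the GFP libraries and to 2188, 2092 and 2209 TPM in the RfA1 libraries. The alpha subunits summed to 1476, 1262 and 1294 TPM with GFP and to 1544, 1321 and 1619 TPM with RfA1. For both classes the sums of the groups overlapped.

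Within a class the levels differed far more between genes than between libraries. PSMA4 was the highest of the alpha genes (360 to 488 TPM over the 6 libraries), followed by PSMA7 (289 to 340 TPM). PSMA1, PSMA6 and PSMA3 followed with ranges that overlapped, between 147 and 214 TPM. PSMA2 (87.1 to 116 TPM) and PSMA5 (37.0 to 51.7 TPM) were the lowest, and neither overlapped its neighbour. The TPM of PSMA5 rests on a length of 3550 bases implied by the authors' values, against 695 to 1174 bases for the other alpha genes.
Among the beta genes, PSMB3 (432 to 481 TPM) was the highest, and from PSMB3 through PSMB1, PSMB4, PSMB6 and PSMB5 to PSMB7 each gene overlapped the next. PSMB2 (61.0 to 79.5 TPM, with an implied length of 4165 bases) and PSMB10 (25.4 to 37.3 TPM) lay apart from them.
The ATPases were the only one of the larger classes in which no neighbours overlapped. They ran from PSMC3 (189 to 213 TPM) through PSMC5, PSMC4, PSMC1 and PSMC2 to PSMC6 (35.8 to 49.6 TPM).
In the lid and base, PSMD8 (254 to 312 TPM), a lid subunit, was the highest, and PSMD5, a chaperone of base assembly, was the lowest (0.85 to 1.44 TPM). Of the activators, PSME2 (123 to 140 TPM) stood above PSME3 and PSME1, which overlapped, and PSME4, the large single-chain activator, was the lowest (14.97 to 21.3 TPM). PSMG3 (207 to 240 TPM) was the highest and PSMG2 (37.7 to 55.3 TPM) the lowest of the PSMG chaperones of core assembly.

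**Figure D1:**
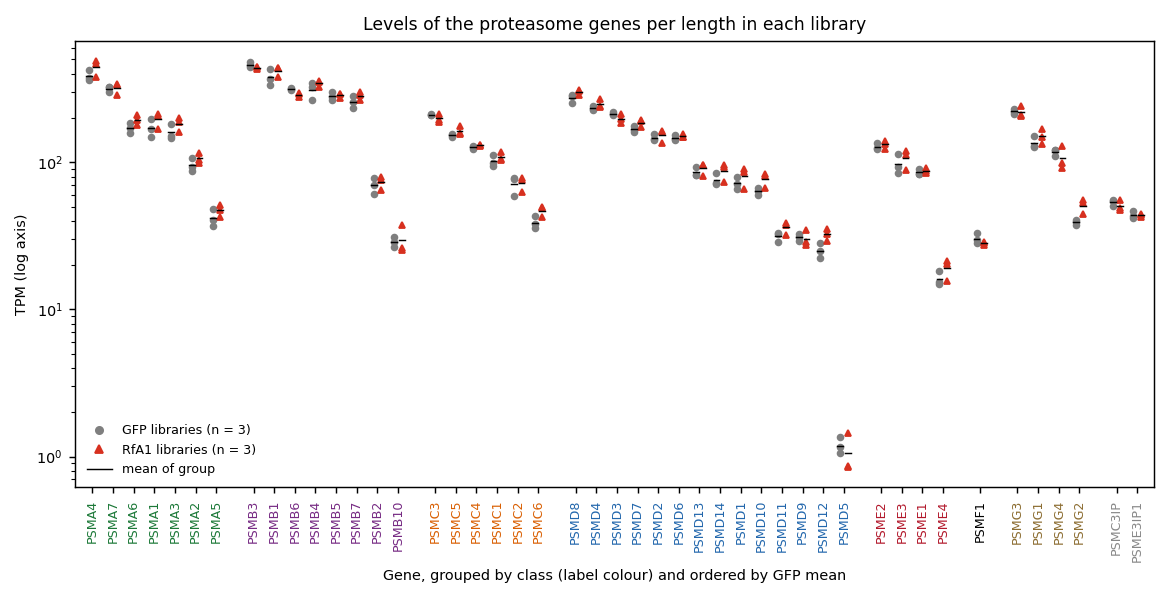
TPM (log axis) of the 46 genes in each of the 3 GFP libraries (grey circles) and 3 RfA1 libraries (red triangles), with black lines for the group means and label colours for the classes. The genes span PSMD5 near 1 TPM to PSMB3 at 432 to 481 TPM, and the groups lie close together for every gene.

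The catalytic beta subunits exist in constitutive forms and in forms that interferon induces and that make up the immunoproteasome. PSMB5, the chymotrypsin-like subunit, stood at 266 to 299 TPM over the 6 libraries. PSMB8, its inducible counterpart, had 1, 0 and 1 counts in the GFP libraries and 0 in each RfA1 library. The limit that a count of 0 allows (3 counts, counting error only) was 0.413 to 0.495 TPM per library, so that no difference between the groups was detectable for PSMB8. PSMB9, the counterpart of the caspase-like PSMB6, had 8, 4 and 8 counts with GFP and 6, 6 and 5 with RfA1, which was 0.193% to 0.422% of the TPM of PSMB6. These 2 genes fell under the count minimum and were not tested. The gene nearest above the minimum was PSMD5, with 20 to 36 counts.
PSMB10, the counterpart of the trypsin-like PSMB7, was expressed in every library, at 8.45% to 13.99% of the TPM of PSMB7. PSMB10 measured 13.6, 16.7 and 15.01 CPM (counts relative to library size, scaled by TMM) in the GFP libraries and 12.8, 20.02 and 12.4 CPM in the RfA1 libraries. The RfA1 libraries spanned the whole GFP range, with replicate 2 above and the others below it, and the fitted log2 fold change was -0.0029 (SE 0.17).

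With edgeR's quasi-likelihood test, 0 of the 46 genes differed between RfA1 and GFP cells at an adjusted p of 0.05, where 0.0769% of all tested genes (10 of 13002) did. DESeq2 (0.254% of all genes) and limma-trend on log2(TPM + 1) (0.0308%) also called 0 of them. At an unadjusted p under 0.05 there were 5 genes in edgeR, 4 higher (against 7.3% of all genes) and 1 lower with RfA1 (against 6.64%), which at 10.9% of the 46 genes was below the 13.9% of all genes. DESeq2 gave 2 genes (against 9.98%) and limma-trend 4 (against 12.6%). The CPM of the groups did not overlap in 7 genes. RfA1 was higher in PSMG2, PSMC6, PSMD7, PSMD10, PSMD11 and PSMD12 (9.86% of all genes) and lower in PSMB6 (8.01% of all genes). In bulk RNA, fewer cells with a transcript and less of it per cell cannot be told apart.

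In the fit of all 6 libraries most intervals were narrow, but they cover only the spread between these libraries, which may be technical. The values moved when RfA1 replicate 2 was left out (described below). The 95% interval of the fold change lay within 1.5-fold in either direction for 45 of the 46 genes, PSMD5 being the exception, and within 1.2-fold for 17 genes. The median SD between replicates of a group was 0.098 (log2 CPM) over the 46 genes, against 0.14 over all tested genes. These sets were not matched for level, as the median in GFP cells was 123 TPM against 14.3 TPM. The median log2 fold change of the 46 genes was 0.033 (27 positive and 19 negative), against -0.0024 over all tested genes, of which 49.5% were positive. On log2(TPM + 1) with limma-trend, 35 were positive and 11 negative, and there the median of all tested genes was itself 0.045.

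**Figure D2:**
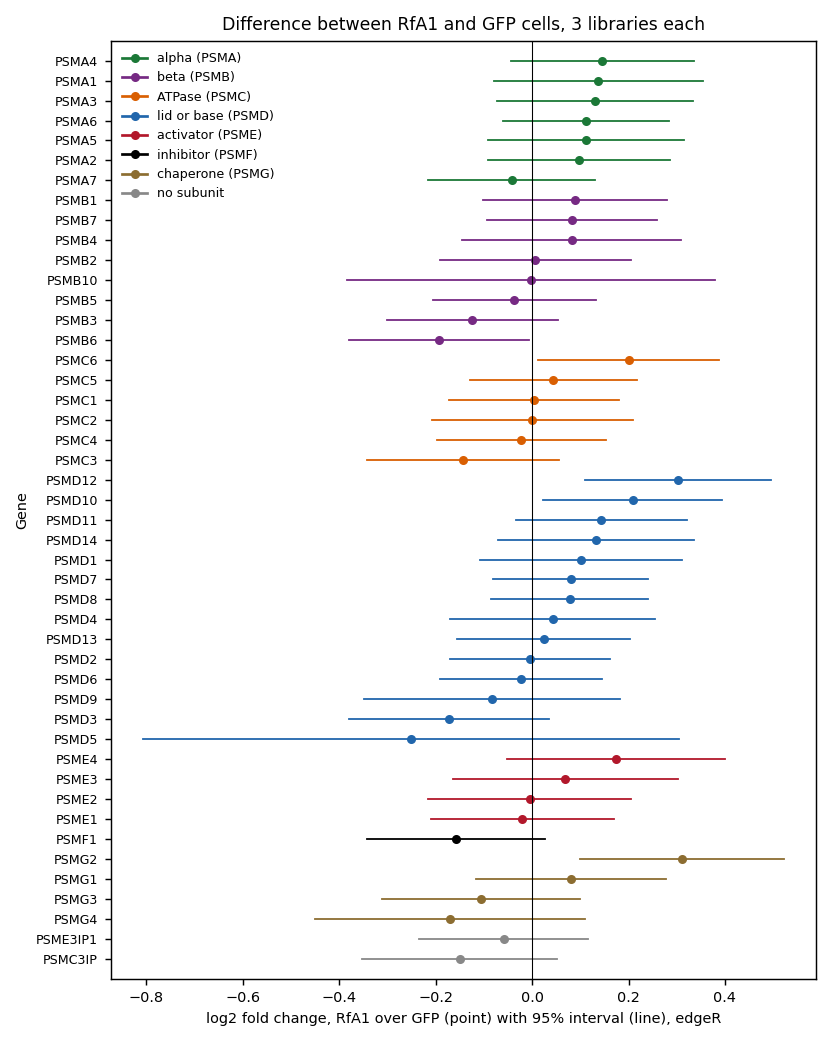
Fitted log2 fold change of RfA1 over GFP (points) with its 95% interval (lines) from edgeR for each of the 46 genes, coloured by class. Intervals of 41 genes cross 0, and those of PSMG2, PSMD12, PSMD10 and PSMC6 lie above it and that of PSMB6 below it before adjustment for the number of genes tested.

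Among the larger classes, the alpha ring had the most one-sided values. Of its 7 genes 6 had a positive log2 fold change (49.5% of all tested genes were positive), with a class median of 0.11. In edgeR 0 of them passed an adjusted p of 0.05 or an unadjusted p of 0.05. PSMA4 measured 278, 249 and 248 CPM with GFP and 293, 260 and 303 CPM with RfA1, a log2 fold change of 0.15 (SE 0.087, adjusted p = 0.449 in edgeR). GFP replicate 1 lay above RfA1 replicate 2, so the groups overlapped. PSMA7 was the one alpha gene with a negative value, at 164, 171 and 153 CPM with GFP and 161, 152 and 162 CPM with RfA1 (log2 fold change -0.043, SE 0.080), and its groups overlapped too. PSMA5, the lowest alpha gene in TPM, measured 109 ± 12.05 CPM with GFP and 118 ± 5.87 CPM with RfA1 (SD, n = 3). In 6 of the 7 alpha genes GFP replicate 1 was above both other GFP libraries, and in 5 of them RfA1 replicate 2 was below both other RfA1 libraries. Whether the class followed the plasmid or the libraries was not tested. The median transcript GC content of the alpha genes was 41.9%, the lowest of the classes. Of all tested genes at or under 48.1% GC, 74.5% had a positive log2 fold change. After a correction for transcript GC content (described below), 4 of the 7 alpha values were positive and the class median was 0.018.

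The beta ring was balanced, with 4 positive and 4 negative values and a median log2 fold change of 0.0017. PSMB6, the caspase-like catalytic subunit, measured 127, 137 and 127 CPM with GFP and 112, 124 and 106 CPM with RfA1. All RfA1 libraries lay below all GFP libraries, by a log2 fold change of -0.19 (SE 0.085, unadjusted p = 0.0431, adjusted p = 0.349 in edgeR). The other constitutive catalytic subunits did not share that value. PSMB5 measured 163 ± 8.23 CPM with GFP and 159 ± 3.598 with RfA1 (SD, n = 3), and PSMB7, the trypsin-like subunit, measured 136 ± 9.41 and 144 ± 3.55 CPM. Their log2 fold changes were -0.037 (SE 0.077) and 0.084 (SE 0.081), and both genes' groups overlapped. Among the noncatalytic beta genes, PSMB1 had the highest log2 fold change (0.089, SE 0.087) and PSMB3 the lowest (-0.12, SE 0.081, with 172, 174 and 163 CPM with GFP and 148, 167 and 151 CPM with RfA1).

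Among the ATPases, PSMC6 and PSMC3 stood at opposite ends. PSMC6 measured 60.5, 53.1 and 55.0 CPM with GFP and 66.6, 62.1 and 65.1 CPM with RfA1, a log2 fold change of 0.20 (SE 0.086, unadjusted p = 0.0384, adjusted p = 0.340 in edgeR). The groups did not overlap, with RfA1 replicate 2 the nearest to GFP replicate 1. PSMC3 measured 201, 209 and 204 CPM with GFP and 171, 210 and 175 CPM with RfA1, a log2 fold change of -0.14 (SE 0.091). RfA1 replicates 1 and 3 lay below the GFP libraries, and RfA1 replicate 2 lay above all of them. The other 4 ATPases had log2 fold changes between -0.022 and 0.044.

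The lid and base genes had 9 positive and 5 negative values, with a median log2 fold change of 0.060. PSMD12, a lid subunit, had the smallest p of all 46 genes. It measured 82.6, 69.5 and 74.4 CPM with GFP and 90.8, 90.2 and 98.4 CPM with RfA1, so that each RfA1 library exceeded each GFP library. The log2 fold change was 0.30 (SE 0.088, unadjusted p = 0.00516, adjusted p = 0.247 in edgeR). PSMD10 (gankyrin, a chaperone of base assembly) measured 58.2, 54.7 and 56.9 CPM with GFP and 66.5, 60.6 and 69.1 CPM with RfA1, again without overlap (log2 fold change 0.21, SE 0.085, unadjusted p = 0.0313, adjusted p = 0.323 in edgeR). The lid subunits PSMD11 and PSMD7 did not overlap between the groups either, with log2 fold changes of 0.14 (SE 0.081) and 0.080 (SE 0.074). For PSMD7 the RfA1 libraries measured 178, 179 and 180 CPM, against 174, 167 and 166 CPM with GFP.
PSMD3, a lid subunit, measured 286, 299 and 304 CPM with GFP and 252, 301 and 236 CPM with RfA1 (log2 fold change -0.17, SE 0.095), with RfA1 replicate 2 inside the GFP range and the other RfA1 libraries below it. PSMD8, the highest lid gene, had a log2 fold change of 0.078 (SE 0.075). PSMD5 had the lowest value of the class, -0.25, but with an SE of 0.25 at 1.82 to 3.18 CPM.

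The activators had 2 positive and 2 negative values. PSME1 and PSME2, whose products form the interferon-inducible activator of the core, measured 45.7 ± 1.01 and 51.0 ± 3.85 CPM with GFP and 45.0 ± 2.84 and 50.8 ± 4.18 CPM with RfA1 (SD, n = 3). Their log2 fold changes, -0.020 and -0.0053, were the closest to 0 of the class, and each had an interval within 1.2-fold. PSME4 measured 90.7, 77.4 and 77.1 CPM with GFP and 101, 80.4 and 95.4 CPM with RfA1 (log2 fold change 0.17, SE 0.10). The groups overlapped, with GFP replicate 1 above RfA1 replicate 2. PSMF1, an inhibitor of the core, measured 185, 174 and 164 CPM with GFP and 148, 168 and 153 CPM with RfA1 (log2 fold change -0.16, SE 0.084, adjusted p = 0.414 in edgeR), where RfA1 replicate 2 overlapped the GFP range.

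The 4 PSMG chaperones, which work in pairs to build the alpha ring, differed in sign. PSMG2 had the highest log2 fold change of the 46 genes. It measured 22.6, 23.0 and 23.9 CPM with GFP and 29.2, 26.7 and 30.4 CPM with RfA1, with each RfA1 library above each GFP library and RfA1 replicate 2 the lowest of the 3. The log2 fold change was 0.31 (SE 0.097, unadjusted p = 0.00766, adjusted p = 0.254 in edgeR). PSMG1, its partner, measured 81.5 ± 6.20 CPM with GFP and 86.2 ± 6.51 with RfA1 (SD, n = 3), a log2 fold change of 0.080. PSMG4 measured 50.0, 56.6 and 50.9 CPM with GFP and 40.0, 57.4 and 42.6 CPM with RfA1 (log2 fold change -0.17, SE 0.13). PSMG3, the partner of PSMG4, measured 104, 105 and 102 CPM with GFP and 89.0, 110 and 90.4 CPM with RfA1 (log2 fold change -0.11, SE 0.094). In both PSMG3 and PSMG4, RfA1 replicate 2 lay above all other libraries and RfA1 replicates 1 and 3 below them. PSMC3IP and PSME3IP1, which are no subunits, had log2 fold changes of -0.15 (SE 0.093) and -0.059 (SE 0.080).

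Of the libraries left out 1 at a time, RfA1 replicate 2 changed the calls most. Without it, edgeR called 10 of the 46 genes at an adjusted p of 0.05, against 20.1% of all genes tested. Leaving out any other library called 0 of them, against 0% of all genes without GFP replicate 2 or 3, 0.00763% without GFP replicate 1, 0.0152% without RfA1 replicate 1 and 0.0305% without RfA1 replicate 3. The 5 genes that rose in that comparison were PSMG2 (log2 fold change 0.36), PSMD12 (0.33), PSME4 (0.26), PSMD10 (0.26) and PSMA4 (0.21), against 8.56% of all genes. The 5 that fell were PSMG4 (-0.35), PSMD3 (-0.28), PSMB6 (-0.26), PSMC3 (-0.24) and PSMG3 (-0.21), against 11.5% of all genes. The share called was thus 21.7%, close to that of all genes, and in no class were all genes called. PSMD12 had an adjusted p of 0.0118 there, and over all 17 alternatives its adjusted p in edgeR, DESeq2 or limma-trend ran from 0.0118 to 0.746, and that of PSMG2 from 0.0161 to 0.742.

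**Figure D3:**
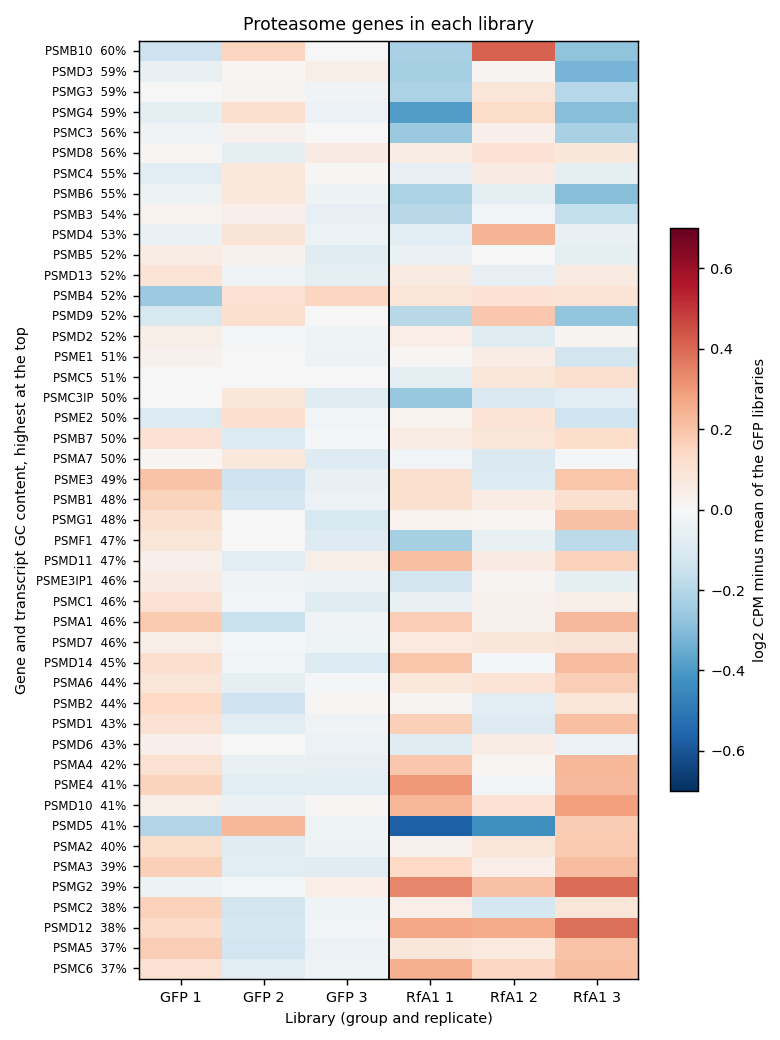
Each gene's log2 CPM in the 6 libraries minus the mean of the GFP libraries (colour), with genes ordered by the GC content of their transcript, highest at the top. RfA1 replicates 1 and 3 are blue for many GC-rich genes and red for most GC-poor ones, while RfA1 replicate 2 looks more like the GFP libraries.

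The GC content of the transcripts moved with the values. Across the 46 genes, the log2 fold change and the GC content had a Spearman's rho of -0.633 and a Pearson's r of -0.604, and across all tested genes rho was -0.555. These are descriptions across genes, which share the same 6 libraries and are not independent. Of the 23 genes at or under the median GC content of 48.1%, 19 had a positive log2 fold change (74.5% of all tested genes on that side). Of the 23 genes over it, 15 had a negative one, and 28.3% of all tested genes on that side were positive. The 4 genes higher at an unadjusted p under 0.05 had transcripts of 36.8% to 41.5% GC, and PSMB6 one of 54.9%. Libraries of 1 group differed along GC content too. GFP replicate 1 was above both other GFP libraries in 20 of the 23 GC-poor genes. In the 23 GC-rich genes it was above both in 8 and below both in 10. RfA1 replicate 2 was above both other RfA1 libraries in 15 of the 23 GC-rich genes and below both in 15 of the GC-poor ones. These counts were not made over all tested genes. The part of GC content in these differences was not tested. The correction that follows removes every difference between libraries that follows GC content. It cannot tell one that came with the plasmid from one that came with the libraries.

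With each library corrected for transcript GC content, an alternative chosen after the data were seen, edgeR called 0 of the 46 genes, against 1.22% of all genes. At an unadjusted p under 0.05 there were 6 genes (against 15.7% of all genes). Of these, PSMD12 (log2 fold change 0.19), PSMG2 (0.19) and PSMD8 (0.14) were higher and PSMF1 (-0.20), PSMC3IP (-0.16) and PSMB6 (-0.14) were lower with RfA1. PSMC6 and PSMD10 were no longer among them. With the correction and without RfA1 replicate 2, edgeR called 2 of the 46 genes, against 6% of all genes. PSMF1 fell (log2 fold change -0.28, adjusted p = 0.00288) and PSMD6, a lid subunit, fell (-0.21, adjusted p = 0.0316). In all 6 libraries without the correction, PSMD6 had a log2 fold change of -0.023 (SE 0.077, adjusted p = 0.907 in edgeR). Of the 17 alternatives 1 called PSMD6, with log2 fold changes from -0.21 to 0.038 and adjusted p up to 0.992, and the adjusted p of PSMF1 ran up to 0.832.

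**Figure D4:**
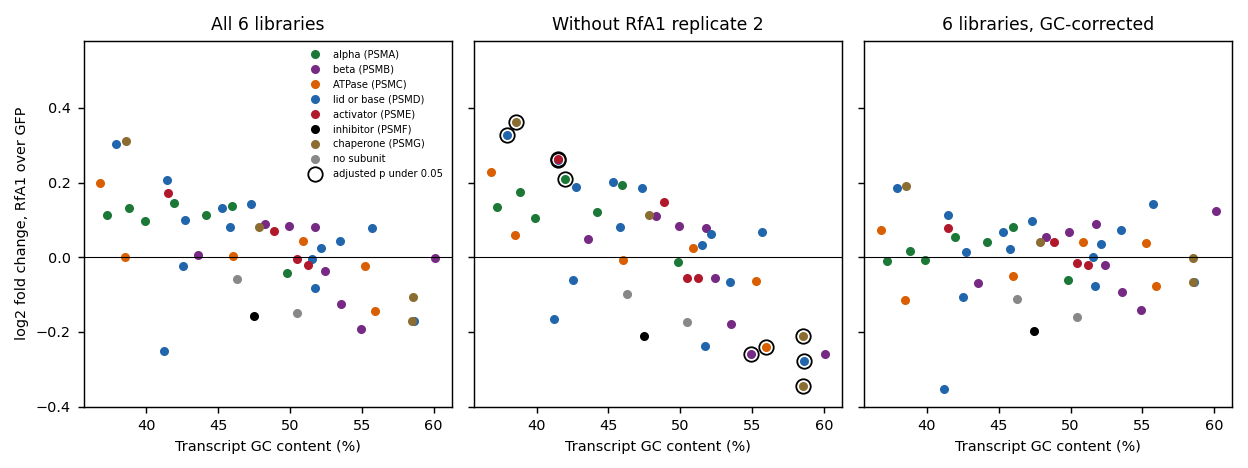
Log2 fold change of RfA1 over GFP for the 46 genes against the GC content of their transcript, in all 6 libraries, without RfA1 replicate 2, and in all 6 libraries after the GC correction; rings mark an adjusted p under 0.05 in edgeR. Values fall from left to right in the left and middle panels, and only the middle panel has ringed genes (10).

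The values of genes with and without a promoter match are given as a description. The 10 genes with the response element core had a median log2 fold change of -0.013 (4 positive), and the 30 without it one of 0.057 (20 positive). For CCAAT the medians were 0.057 in 18 genes with it and 0.015 in 22 without, and for CCGGAAG they were 0.024 in 9 genes and 0.044 in 31. Among the genes searched, PSMG2 and PSMD12 had the highest log2 fold changes (0.31 and 0.30), and both held the response element core. The core of PSMG2, whose promoter is not printed above, began 39 bases before the start. PSMC6, without the core, also had a higher value with RfA1 (0.20). PSMB3 and PSMD3, shown above with the core, had lower values with RfA1 (-0.12 and -0.17). The core was not found in the promoters of the 6 alpha genes and 6 ATPases searched, and 3 of the 4 activators had one.

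Genes of the pathway outside the symbol rule were described from a list by function. Of 47 tested, 0 passed an adjusted p of 0.05 in edgeR. At an unadjusted p under 0.05 in edgeR, 8 were higher and 1 lower (against 7.3% and 6.64% of all genes). The 5 other subunits and assembly factors had 0 at that level. Of the 47, 32 were positive and 15 negative (49.5% of all genes were positive), with a median log2 fold change of 0.046. ADRM1, a ubiquitin receptor of the base, measured 302, 333 and 334 CPM with GFP and 251, 358 and 251 CPM with RfA1, with RfA1 replicate 2 above and the other RfA1 libraries below the GFP range. Its log2 fold change was -0.17 (SE 0.13), and -0.36 without RfA1 replicate 2 (adjusted p = 0.00313 in edgeR, with a range up to 0.992 over the 17 alternatives). After the GC correction in all 6 libraries it was -0.0025. POMP, which matures the core, measured 95.1, 83.1 and 84.8 CPM with GFP and 91.1, 84.3 and 100 CPM with RfA1 (log2 fold change 0.067, SE 0.091), and its groups overlapped.
The 12 regulators of proteasome genes held 4 of the 8 higher values (against 7.3% of all genes). Of the 12, 10 were positive (against 49.5% of all genes), with a median log2 fold change of 0.17. The regulators were not tested as a set. NFE2L2, a transcription factor of the oxidative stress response, measured 57.4, 53.0 and 53.2 CPM with GFP and 70.6, 68.8 and 69.9 CPM with RfA1. Every RfA1 library, replicate 2 included, lay above every GFP library (log2 fold change 0.36, SE 0.080, unadjusted p = 0.000863, adjusted p = 0.175 in edgeR). Its adjusted p ran from 0.00601 (without RfA1 replicate 2) to 0.662 over the 17 alternatives, 3 of which called it. After the GC correction in all 6 libraries its log2 fold change was 0.25 (adjusted p = 0.0739 in edgeR).
MAFK, a small MAF protein that pairs with NFE2L1 and NFE2L2 on DNA, measured 48.2, 58.2 and 52.4 CPM with GFP and 62.9, 72.3 and 65.9 CPM with RfA1, again without overlap. The log2 fold change was 0.34 (SE 0.096, adjusted p = 0.238 in edgeR). It was 0.51 after the GC correction, where the adjusted p was 0.000839 in edgeR, and 5 of the 17 alternatives called it, with a range of adjusted p from 8.96e-06 to 0.662. Without RfA1 replicate 2 it was 0.28 (adjusted p = 0.0331 in edgeR).
NFE2L3 measured 26.1, 25.9 and 28.5 CPM with GFP and 33.0, 33.2 and 30.97 CPM with RfA1 (log2 fold change 0.27, SE 0.093, adjusted p = 0.278 in edgeR), and 0 of the 17 alternatives called it. NFE2L1 itself, the factor best known for raising proteasome genes, measured 184, 191 and 195 CPM with GFP and 198, 202 and 184 CPM with RfA1, and the groups overlapped (log2 fold change 0.040, SE 0.077).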

How the data were processed

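RNA-seq was analysed in 6 libraries of HEK-293T cells, 3 per group, grouped by the labels. The authors deposited one table with estimated counts per gene, which are not normalized (7.39% to 8.02% of them not whole). The authors also deposited TPM, scaled per transcript length and library, and FPKM, which was used only to find the transcript length implied by the authors' values. The submitters' processing notes name HISAT and GRCh38.p13, and the counting tool and annotation are not given in the sources used here. The averages over replicates in the table were not used.

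Counts were rounded, filtered with filterByExpr (minimum count 10, minimum total 15), normalized by TMM and compared with the robust quasi-likelihood test of edgeR 4.0.16 in R 4.3.3, two-sided, with Benjamini-Hochberg adjustment over 13002 genes at 0.05. CPM are counts relative to the TMM-scaled library size. Fold changes include counting error through the counts, and limits from counts of 0 cover counting error only. No pair of libraries was as alike as sampling noise alone would make it (chi-square per degree of freedom 1.92 to 17.3). What edgeR names the biological coefficient of variation was 8.83%, though the spread between these libraries may be technical. Reads shared with related genes were assigned by the authors' counting.

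Alternatives were DESeq2 1.42.0 without independent filtering, limma 3.58.1 (limma-trend on log2(TPM + 1)), upper-quartile or total-count scaling, no filter, at least 10 counts in every library, a fit that was not robust, the replicate number as a block, an added fold threshold (log2 of at least 1), other membership rules, and each library left out. Chosen after seeing the data was a GC correction (in each library an offset from a spline, with 5 degrees of freedom, over the GC content of transcripts in GENCODE release 29), alone, with the block and without RfA1 replicate 2. Scripts were tested on simulated data. Of the genes, 12907 of those tested had a GC value. Genes were named when they passed the adjusted threshold, had the extreme log2 fold change, smallest p or extreme TPM of their class, or were catalytic subunits, and from the pathway list the 3 with the smallest p and NFE2L1, POMP and ADRM1. The other genes named, among them PSMD3, PSMD6, PSMD7, PSMD10, PSMD11, PSMC3IP and PSME3IP1, were chosen after their values were seen. The members and lists were chosen with earlier results of these data known, and no list was tested as a set. Figures were drawn with matplotlib 3.10.9.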

Additional observations from a re-analysis of the deposited data

How the results depend on the processing

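Upper-quartile and total-count scaling, both other filters and the fit that was not robust left the count of proteasome genes called at 0. Both other membership rules left it at 0 too. The added fold threshold could only keep it at 0, since 0 genes passed without that threshold. The replicate block called 1 of the 46 genes (PSMD12, adjusted p = 0.0259 in edgeR), 9 at an unadjusted p under 0.05 (19.6%, against 23.6% of all genes), 625 of all genes and 3 of the pathway list. Deviations from the group means correlated by 0.166, 0.321 and -0.143 within the same-numbered pairs. The labels do not say whether same-numbered libraries were handled together, so it is not known whether the numbers pair them. The count at an unadjusted p under 0.05 was 2 with DESeq2. Over all genes 6 were called with upper-quartile scaling, 20 with no filter, 33 with DESeq2 and 4 with limma-trend, where the median log2 fold change of the 46 genes was 0.096. With the GC correction 159 genes and 3 of the pathway list were called, and with the block added 404 and 6. With the correction and without RfA1 replicate 2 these were 788 and 7, with 2 of the 46 genes called, 12 at an unadjusted p under 0.05 (26.1%, against 21% of all genes; 2 higher and 10 lower) and a median log2 fold change of -0.019. Leaving out 1 library at a time gave 0 to 10 genes called of the 46, 2 to 18 at an unadjusted p under 0.05 (against 6.55% to 34.9% of all genes), 0 to 2636 of all genes, 0 to 9 of the pathway list and a median log2 fold change of 0.016 to 0.063. The upper ends of the called counts came without RfA1 replicate 2. The causes were not tested.

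Among the genes named by rule, 7 changed sign under an alternative. PSMB10 was 0.010 with total-count scaling, 0.12 with the GC correction, alone or with the block, 0.027 with limma-trend, and -0.26 to 0.12 with 1 library left out. PSME2 was 0.011 with total-count scaling, 0.055 with limma-trend and -0.057 to 0.057 with 1 library left out. PSMA7 (0.018), PSMB5 (0.022) and PSME1 (0.038) were positive with limma-trend, and PSME1 ran from -0.056 to 0.029 with 1 library left out. PSMA5 was -0.0093 with the GC correction, -0.010 with the block added and -0.063 without RfA1 replicate 2 as well. POMP was -0.081 with the correction, alone or with the block, -0.10 without RfA1 replicate 2 as well, and -0.00017 to 0.13 with 1 library left out. Of the other comparisons of single named genes with an alternative, 418 kept their side and direction and 19 passed the threshold that the value in all 6 libraries missed. Depth limits PSMD5, PSMB8 and PSMB9.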
